A study of Rattus norvegicus with 138 samples.

Results

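Heme, iron and metallothionein genes were followed in rat tibialis anterior (TA) muscle after volumetric muscle loss (VML), an injury in which so much muscle is removed that the tissue does not fill the defect. They are 9 genes, picked by symbol from 16181 gene symbols: Hmox1, Blvrb, Fth1, Ftl1, Slc40a1, Tfrc, Slc11a1, Cp and Mt1. The choice was made with earlier results of these data known, taken here to be the levels in unrepaired injured muscle against control and contralateral muscle. Those levels, and contralateral against control muscle of the same rats, are therefore described without a p, as are differences between arms that contain them. Tests are given within grafted rats and within running rats, on the assumption that their values did not enter the choice. That assumption could not be checked. All 9 genes were among the 11328 tested.

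The animals were male Lewis rats of about 4 months, given buprenorphine before surgery, and every operated rat had a punch defect in the middle of 1 TA muscle under isoflurane. Unrepaired rats that did not run gave 3, 8, 4 and 4 injured muscles at 3, 7, 14 and 28 days post injury (DPI) and 2, 4, 2 and 2 contralateral muscles. Rats repaired with an autologous minced muscle graft (MMG), made from the tissue that was cut out, gave 7, 8, 4 and 4 injured and 2, 6, 2 and 2 contralateral muscles. Rats labelled as running, a condition whose regime is not described in the sources used here, gave 8, 4, 4 and 2 injured muscles without repair and 6, 4, 4 and 2 with MMG, with 2 contralateral muscles in each of both arms at 3, 7 and 14 DPI and none at 28 DPI. Control muscle, labelled Sham at day 0, was the left and right TA of 2 rats, which makes 4 muscles but 2 animals. Control rats belong to another numbered series than operated rats, so the series and the injury cannot be told apart against control, whereas contralateral muscle comes from the operated rats. Contralateral muscle is uninjured tissue of an injured animal.

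Values are TPM, each transcript's share of a library corrected for its length, so every library sums to the same total and the depth of each is unknown. Libraries with fewer than 7000 symbols above 1 TPM were dropped, which removed 13 libraries with 901 to 5712 such symbols and kept 116 with 7866 to 10948. The control muscle with 7866, the right TA of rat TS4.038, held the lowest control value of 8 of the 9 genes. The muscle fiber gene Acta1 ranged from 44585 to 69428 TPM in control muscle, and the macrophage gene Cd68 from 0.77 to 1.39 TPM. Folds are from limma on log2(TPM + 1), a scale that understates the change of genes with low TPM, and called genes are those past both a Benjamini-Hochberg adjusted p of 0.05 and a log2 fold change of 1 in size. The median log2 fold change of all genes tested in injured against contralateral muscle without repair was 0.54, 0.91, 0.50 and 0.38 at 3, 7, 14 and 28 DPI. Rescaling by median-of-ratios size factors brought these medians to 0.05, 0.06, 0 and 0.02, and calls that this rescaling ends or turns are named with the gene. Against control the medians without rescaling were 0.96, 0.91, 0.53 and 0.52, and the folds against control given below are not corrected for them.

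Heme is the iron-carrying ring of hemoglobin and of myoglobin, the oxygen-binding protein of muscle, and it is toxic when set free by bleeding or by the death of fibers. Phagocytes take it up and break it down with heme oxygenase, and the iron is then stored in ferritin or exported through ferroportin to transferrin in the blood. Iron regulatory proteins act on ferritin and transferrin receptor transcripts in opposite ways, so that cells rich in iron make more ferritin and less receptor. Metallothioneins bind zinc and copper and are induced by metals through the factor MTF1, and by glucocorticoids and inflammatory cytokines.

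RefSeq promoter sequences (build GRCr8) were at hand for 5 of the 9 genes: Blvrb, Cp, Slc40a1, Tfrc and Mt1. The Mt1 sequence is shown because Mt1 had the highest fold against control and its window held matches to both kinds of motif searched. It covers the 250 bases before the start of the gene, chr19:10832976-10833225 on the minus strand, written 5′ to 3′ with the matches in capitals.
Mt1 promoter: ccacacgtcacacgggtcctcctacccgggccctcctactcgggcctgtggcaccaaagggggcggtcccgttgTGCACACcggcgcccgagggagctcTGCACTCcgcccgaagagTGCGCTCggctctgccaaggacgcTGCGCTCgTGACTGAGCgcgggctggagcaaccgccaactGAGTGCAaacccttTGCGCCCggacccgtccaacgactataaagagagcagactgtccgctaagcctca
The motifs were the antioxidant response element core TGACNNNGC and the metal response element cores TGCGCNC and TGCACNC, searched on both strands. Mt1 held 1, 3 and 3 matches. Counted from the start of the gene, TGACNNNGC began at -101, TGCGCNC at -133, -109 and -55, and TGCACNC at -176, -151 and, on the reverse strand, -69. Tfrc held 3 matches to TGCGCNC, at -145 and, overlapping each other, at -82 and -79. The windows of Blvrb, Cp and Slc40a1 held no match to these letters. Of 33469 rat promoters of 300 bases, 12.1% held TGACNNNGC, 14.1% TGCGCNC and 12.2% TGCACNC. These matches are a description of the letters, and binding was not measured.

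Against control, 8 of the 9 genes were called higher and 1 lower in unrepaired injured muscle at 3 DPI, where 52.6% of all genes tested were called in either direction. At 7, 14 and 28 DPI 7 genes were called higher and none lower, with 48.1%, 25.5% and 21.3% of all genes called. Against contralateral muscle 8 genes were called higher at 3 DPI (38.2% of all genes), 7 higher and 1 lower at 7 DPI (47.4%), and 7 higher at 14 DPI (21.1%) and 28 DPI (13.3%). The genes were chosen on these comparisons, so the counts describe the choice. With size factors the counts against control became 6 higher and 1 lower at 3 and 7 DPI, 5 higher at 14 DPI, and 5 higher and 1 lower at 28 DPI, where 41.4%, 36.1%, 21.7% and 14.7% of all genes were called under that scaling. Against contralateral muscle they became 6 higher at 3 DPI (34.2% of all genes), 6 higher at 7 DPI (31.6%), 5 higher at 14 DPI (14.3%) and 5 higher at 28 DPI (8.73%), with Tfrc called lower at 7 and 14 DPI. The median log2 fold change of the 9 genes against contralateral muscle was 2.59, 2.86, 1.57 and 1.76 on the 4 days.

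**Figure D1:**
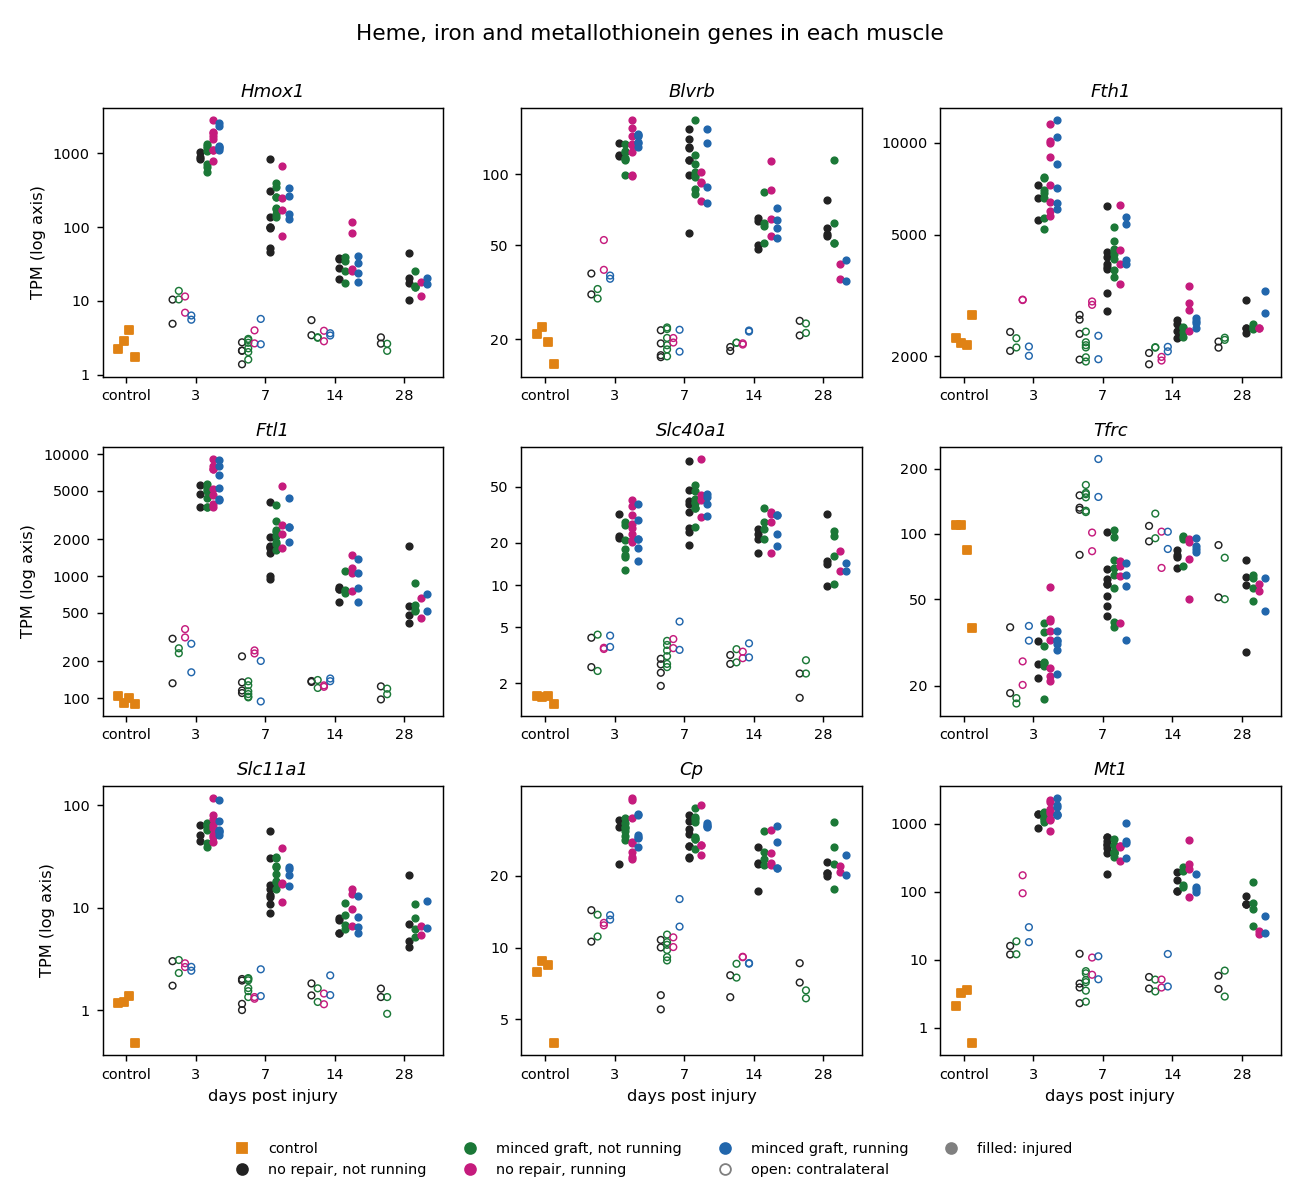
TPM (log axis) of the 9 genes in each muscle, by days post injury, with control muscle as squares, contralateral muscle as open circles, injured muscle as filled circles, and a color for each repair and running arm. In TPM, all genes but Tfrc sat higher in injured than in contralateral muscle of the same arm and day (Fth1 turned with size factors at 7 to 28 DPI in unrepaired rats, at 14 and 28 DPI in grafted rats, and at 7 and 14 DPI in running unrepaired rats), whereas Tfrc in contralateral muscle was lower at 3 DPI (16.6 to 37.7 TPM) than at 7 DPI (80.1 to 221).

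Hmox1, the inducible heme oxygenase that cleaves heme into biliverdin, carbon monoxide and iron, had the second highest fold of the 9 genes against control at 3 DPI, after Mt1, and the highest against contralateral muscle of unrepaired rats. Control muscles held 1.73, 2.24, 2.84 and 3.98 TPM, and contralateral muscles of unrepaired rats at 3 DPI held 4.89 and 10.4 TPM. Unrepaired injured muscles held 829, 899.7 and 1047 TPM at 3 DPI. No injured muscle at 3 DPI came near the uninjured ones. At 7 DPI the 8 unrepaired injured muscles ranged from 45.7 to 833 TPM with a median of 99.4, at 14 DPI the 4 held 19.7, 28.2, 37.3 and 37.7 TPM, and at 28 DPI they held 10.4, 17.5, 20.2 and 44.8 TPM. The fold against control was 256, 36.5, 8.53 and 5.91 on the 4 days. Levels thus fell by day and stayed above all control muscles at 28 DPI. Over all 4 arms injured muscle ranged from 554 to 2854 TPM at 3 DPI (24 muscles) and from 10.4 to 44.8 TPM at 28 DPI (12 muscles).

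Hmox1 was also called higher in the injured muscle of grafted rats, taken here as samples that the choice did not use. Grafted injured muscle ranged from 554 to 1361 TPM at 3 DPI with a median of 1074, against 10.5 and 13.7 TPM in grafted contralateral muscle. The log2 fold change was 6.16 ± 0.53 (SE, 7 against 2 muscles, limma adjusted p = 2.08e-18) at 3 DPI and 6.05 ± 0.36 (8 against 6, adjusted p = 2.74e-28) at 7 DPI. It was 2.79 ± 0.57 (4 against 2, adjusted p = 1.65e-05) at 14 DPI and 2.49 ± 0.57 (4 against 2, adjusted p = 0.000148) at 28 DPI. Running unrepaired muscle gave the highest Hmox1 value of the series, 2854 TPM at 3 DPI, and log2 fold changes of 7.25 ± 0.52, 5.67 ± 0.57 and 3.58 ± 0.57 at 3, 7 and 14 DPI.

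Blvrb, a biliverdin and flavin reductase, changed less and over a narrower range. Control muscles held 15.7, 19.5, 21.1 and 22.7 TPM, and unrepaired injured muscles at 3 DPI held 119.8, 120.5 and 135.6 TPM. At 28 DPI the 4 unrepaired injured muscles held 55.1, 56.0, 59.4 and 77.99 TPM, all above control. The fold of Blvrb against control was 6.14, 5.58, 2.78 and 3.04 on the 4 days. In grafted rats its log2 fold change against contralateral muscle was 1.89 ± 0.22 at 3 DPI (adjusted p = 1.22e-12), 2.37 ± 0.15 at 7 DPI (adjusted p = 1e-26), 1.66 ± 0.24 at 14 DPI and 1.52 ± 0.24 at 28 DPI. With size factors the grafted values at 14 and 28 DPI were 0.98 and 0.94, under the fold limit, as were the running value at 3 DPI (0.88) and the unrepaired values at 14 and 28 DPI.

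Fth1 and Ftl1 encode the heavy and light chains of ferritin, the iron store of the cell, of which the heavy chain oxidizes iron and the light chain helps to build the mineral core. Both have many near-identical copies in the genome, so the share of reads given to each symbol is uncertain. Fth1 was abundant in control muscle at 2181.97, 2215, 2304 and 2744 TPM and reached 5607, 6589 and 7295 TPM in unrepaired injured muscle at 3 DPI. At 14 DPI the 4 unrepaired injured muscles held 2304, 2432, 2556 and 2625 TPM, within the range of control. Fth1 in these muscles was 2.75-fold above control at 3 DPI and 1.05-fold at 14 DPI, a value that turned to -0.62 on the log2 scale with size factors. The log2 fold change of Fth1 at 3 DPI was 1.46 ± 0.18 and, with size factors, 0.31.

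Ftl1 stood much lower in control muscle, at 90.4, 91.7, 99.7 and 104.2 TPM, and reached 3711, 4665 and 5616 TPM in unrepaired injured muscle at 3 DPI. At 28 DPI the 4 muscles held 409.9, 476, 573 and 1753 TPM, each above all control muscles. The fold of Ftl1 against control was 47.3, 17.3, 7.65 and 6.85 on the 4 days. In grafted rats the log2 fold change of Ftl1 against contralateral muscle was 4.24 ± 0.36 at 3 DPI (adjusted p = 9.79e-19), 4.31 ± 0.24 at 7 DPI (adjusted p = 1.3e-29), 2.66 ± 0.39 at 14 DPI (adjusted p = 9.39e-09) and 2.42 ± 0.39 at 28 DPI (adjusted p = 2.2e-07). Fth1 in the same rats gave 1.58 ± 0.19 (adjusted p = 1.65e-12), 1.02 ± 0.12 (adjusted p = 3.74e-12), 0.18 ± 0.20 (adjusted p = 0.425) and 0.13 ± 0.20 (adjusted p = 0.581). The Fth1 call at 7 DPI was lost without rat TS5.023 (0.98) or TS5.128 (0.998). With size factors no Fth1 call was left, and its grafted values became 0.86, 0.07, -0.53 and -0.47, whereas Ftl1 was called under both scalings in every comparison of injured with control or contralateral muscle.

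The unequal change of the chains showed within each library, as Ftl1 TPM in percent of Fth1 TPM, a ratio that no scaling of the library alters. The ratio was 3.29% to 4.57% in the 4 control muscles. In injured muscle of all arms it was 62.0% to 89.4% at 3 DPI (24 muscles), with a median of 71.0%, and its median was 50.2%, 32.3% and 21.5% at 7, 14 and 28 DPI. The lowest injured muscle at 28 DPI, with 16.6%, was above the highest contralateral muscle of any day. Contralateral muscle itself held 6.35% to 13.9% at 3 DPI (8 muscles), above all 4 control muscles, and 4.57% to 5.58% at 28 DPI. A ratio shows that the transcripts changed unequally and does not show the composition of the ferritin protein.

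**Figure D2:**
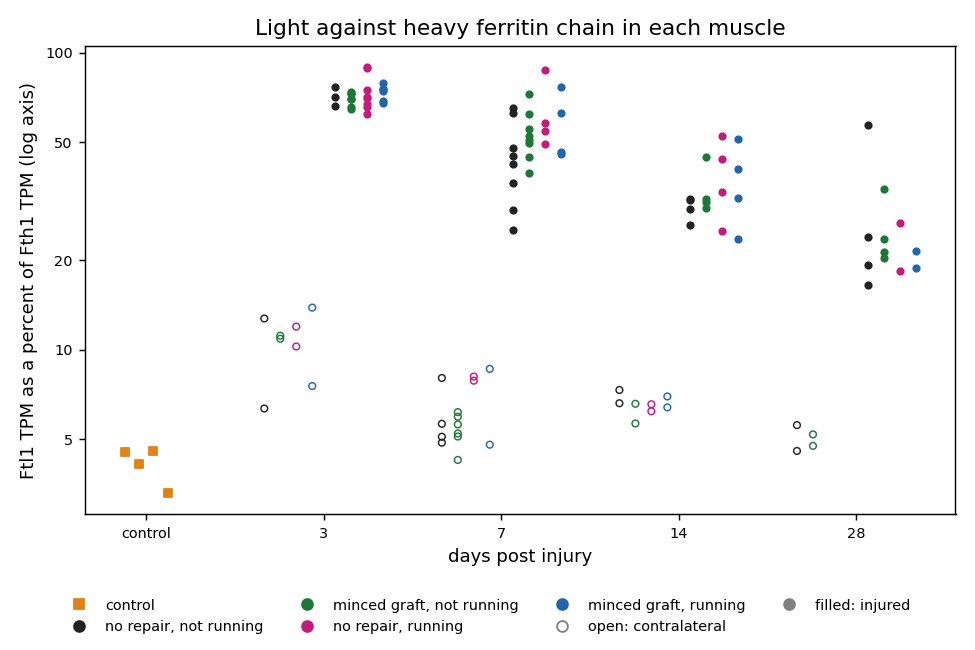
Ftl1 TPM as a percent of Fth1 TPM (log axis) in each muscle, by days post injury, with control muscle as squares, contralateral muscle as open circles and injured muscle as filled circles colored by arm. Injured muscles lay between 62.0% and 89.4% at 3 DPI and between 16.6% and 57.3% at 28 DPI, and control muscles between 3.29% and 4.57%.

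Slc40a1 encodes ferroportin, the iron exporter, and its highest values came at 7 rather than 3 DPI. Control muscles held 1.43, 1.58, 1.62 and 1.62 TPM. Unrepaired injured muscles held 21.7, 22.3 and 32.3 TPM at 3 DPI and 19.2 to 76.6 TPM with a median of 35.6 at 7 DPI. At 28 DPI they held 9.79, 14.1, 14.9 and 32.2 TPM, still far from control, and Slc40a1 was 10.1-, 14.0-, 8.75- and 6.68-fold above control on the 4 days. Grafted muscle gave log2 fold changes for Slc40a1 of 2.22 ± 0.30 (adjusted p = 2.62e-10), 3.22 ± 0.20 (adjusted p = 1.51e-26), 2.76 ± 0.33 (adjusted p = 1.27e-11) and 2.33 ± 0.33 (adjusted p = 6.1e-09) against contralateral muscle. In grafted injured muscle the level at 7 DPI exceeded that at 3 DPI by 0.97 ± 0.19 on the log2 scale (adjusted p = 1.67e-05), just under the fold limit, and by 1.05 with size factors.

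Tfrc, the transferrin receptor that brings iron into cells, was the only one of the 9 genes that was never called higher in injured muscle. Control muscles held 37.1, 84.4, 109.6 and 110.4 TPM, the lowest in the right TA of rat TS4.038. Unrepaired injured muscles at 3 DPI held 21.8, 25.3 and 32.2 TPM and contralateral muscles of the same arm and day 18.5 and 37.2 TPM, so injured and contralateral muscle overlapped, and 1 of the 2 contralateral muscles lay inside the control range. At 7 DPI the 8 unrepaired injured muscles ranged from 42.1 to 101.8 TPM with a median of 58.9, and the 4 contralateral muscles held 80.1, 129.2, 132.1 and 151 TPM. The log2 fold change of Tfrc against control was -1.55 ± 0.30 at 3 DPI, the 1 called lower there, and -2.68 with size factors. At 7 and 28 DPI it was -0.40 and -0.55 and not called, and -1.48 and -1.22 with size factors, which were called. The log2 fold change of Tfrc against contralateral muscle was -0.01 at 3 DPI and -1.003 at 7 DPI, at the fold limit: the fit with the rat as a block gave -0.997, and leaving out rat TS5.012, TS5.020, TS5.105 or TS5.126 gave -0.90 to -0.99, all short of a call. With all libraries kept it was 0.46, since the 5 libraries of this arm and day with few symbols then entered. With size factors Tfrc was called lower than in contralateral muscle at 7 and 14 DPI.

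Grafted rats held Tfrc at 37.3 to 103.8 TPM in 8 injured muscles at 7 DPI, all below their 6 contralateral muscles at 126.1 to 168 TPM. The difference was -1.17 ± 0.21 on the log2 scale (adjusted p = 4.27e-07). At 3 DPI it was 0.66 ± 0.31 (adjusted p = 0.0485), under the fold limit, and with size factors it was -0.03. At 14 and 28 DPI the grafted differences for Tfrc were -0.28 ± 0.34 and -0.11 ± 0.34, and neither passed the test. In running unrepaired rats the 4 injured muscles at 7 DPI held 38.8, 64.2, 71.0 and 74.98 TPM, below the contralateral pair at 83.3 and 101.5 TPM. That Tfrc difference was -0.60 ± 0.34 (adjusted p = 0.0951), and -1.495 with size factors, which was called.

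Slc11a1 encodes NRAMP1, which moves iron and other metals out of the phagosomes of macrophages and neutrophils. Control muscles held 0.48, 1.16, 1.20 and 1.36 TPM, and unrepaired injured muscles held 44.5, 50.98 and 63.4 TPM at 3 DPI. Slc11a1 was at 4.13, 4.71, 6.87 and 20.7 TPM in the 4 unrepaired injured muscles at 28 DPI, above all control muscles. The fold against control was 26.5, 8.95, 3.80 and 4.17. Grafted muscle gave log2 fold changes of 3.94 ± 0.36 (adjusted p = 2.42e-17), 3.09 ± 0.24 (adjusted p = 2.95e-21), 1.89 ± 0.39 (adjusted p = 1.45e-05) and 1.96 ± 0.39 (adjusted p = 1.33e-05) against contralateral muscle. In Pearson correlation over the 31 group means, Slc11a1 and Hmox1 were the most alike pair among the 9 genes (r = 0.990). Groups share days and scaling, so r is given as a description.

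Cp encodes ceruloplasmin, the copper enzyme that oxidizes iron leaving the cell so that transferrin can bind it. Control muscles held 3.99, 7.93, 8.48 and 8.83 TPM, and unrepaired injured muscles held 22.5, 32.1 and 34.3 TPM at 3 DPI. Cp had the flattest course of the genes that rose: its median over injured muscle of all arms was 30.4, 30.7, 23.1 and 21.3 TPM at 3, 7, 14 and 28 DPI. The grafted log2 fold change was 1.28 ± 0.19 at 3 DPI (adjusted p = 4.29e-09), 1.57 ± 0.13 at 7 DPI (adjusted p = 3.76e-20), 1.54 ± 0.21 at 14 DPI and 1.78 ± 0.21 at 28 DPI (adjusted p = 1.69e-11). With size factors the only Cp call left in an injured comparison was that in grafted rats at 28 DPI, at 1.25.

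Mt1, a metallothionein that binds zinc and copper through its cysteines, had the highest fold of the 9 genes against control on all 4 days. Its copy Mt2A is closely similar, so the split of reads between them is uncertain. Control muscles held 0.60, 2.06, 3.26 and 3.56 TPM, and contralateral muscles of unrepaired rats at 3 DPI held 11.9 and 15.9 TPM. Unrepaired injured muscles held 852, 1374 and 1383 TPM at 3 DPI. At 7 DPI the range was 183 to 637 TPM with a median of 493, at 14 DPI the values were 101.02, 103.2, 149 and 192 TPM, and at 28 DPI 64.9, 65.7, 66.6 and 85.2 TPM. Mt1 was 376-, 143.8-, 42.4- and 22.8-fold above control on the 4 days, and the lowest injured muscle of any arm at 28 DPI (24.1 TPM) still exceeded every control muscle. Without the control muscle of fewest symbols the log2 fold change of Mt1 at 3 DPI was 8.23, beside 8.56 with it. Grafted muscle gave log2 fold changes of 6.31 ± 0.42 (adjusted p = 3.11e-24), 6.23 ± 0.28 (adjusted p = 2.61e-35), 4.98 ± 0.46 (adjusted p = 6.43e-16) and 3.57 ± 0.46 (adjusted p = 5.18e-10) against contralateral muscle.

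Counted together, grafted injured muscle had 8 of the 9 genes higher than grafted contralateral muscle at 3 DPI (44% of all genes were called), 8 higher and 1 lower at 7 DPI (46.2%), and 7 higher at 14 DPI (26.1%) and 28 DPI (19.1%). Running unrepaired rats had 8 higher at 3 DPI (40.1%), 7 at 7 DPI (43.1%) and 7 at 14 DPI (26.3%). With size factors grafted muscle had 6 higher at 3 DPI (37.5% of all genes under that scaling), 6 higher and 1 lower at 7 DPI (34.9%), 5 higher at 14 DPI (19.5%) and 6 at 28 DPI (13%). Running rats then had 5 higher at 3 DPI (36.9%), 6 higher and 1 lower at 7 DPI (34.4%) and 6 higher at 14 DPI (18.6%). In TPM, all injured muscles were above all contralateral muscles for 8 of the 9 genes, all but Tfrc, in each of the 14 injured groups that had contralateral muscle. Groups were as small as 2 muscles, and such separation was common: of all genes tested, 59.7%, 67%, 73.1% and 67.4% lay wholly above contralateral muscle in unrepaired rats at 3, 7, 14 and 28 DPI, and 62.2%, 68.4%, 75.2% and 69.7% in grafted rats. In running rats these shares at 3, 7 and 14 DPI were 56.4%, 71.1% and 73.4% without repair and 60.9%, 70.4% and 67.2% with MMG. Tfrc was below all contralateral muscles in 4 of these groups, in which 9.23% (grafted, 7 DPI), 11.4% and 12.1% (running without and with MMG, 7 DPI) and 7.81% (unrepaired, 14 DPI) of all genes were wholly below. The Fth1 difference in running rats, 0.57 ± 0.20 at 7 DPI (adjusted p = 0.00752) and 0.56 ± 0.20 at 14 DPI (adjusted p = 0.0107), passed the test and not the fold limit, and with size factors it turned to -0.34 and -0.17.

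**Figure D3:**
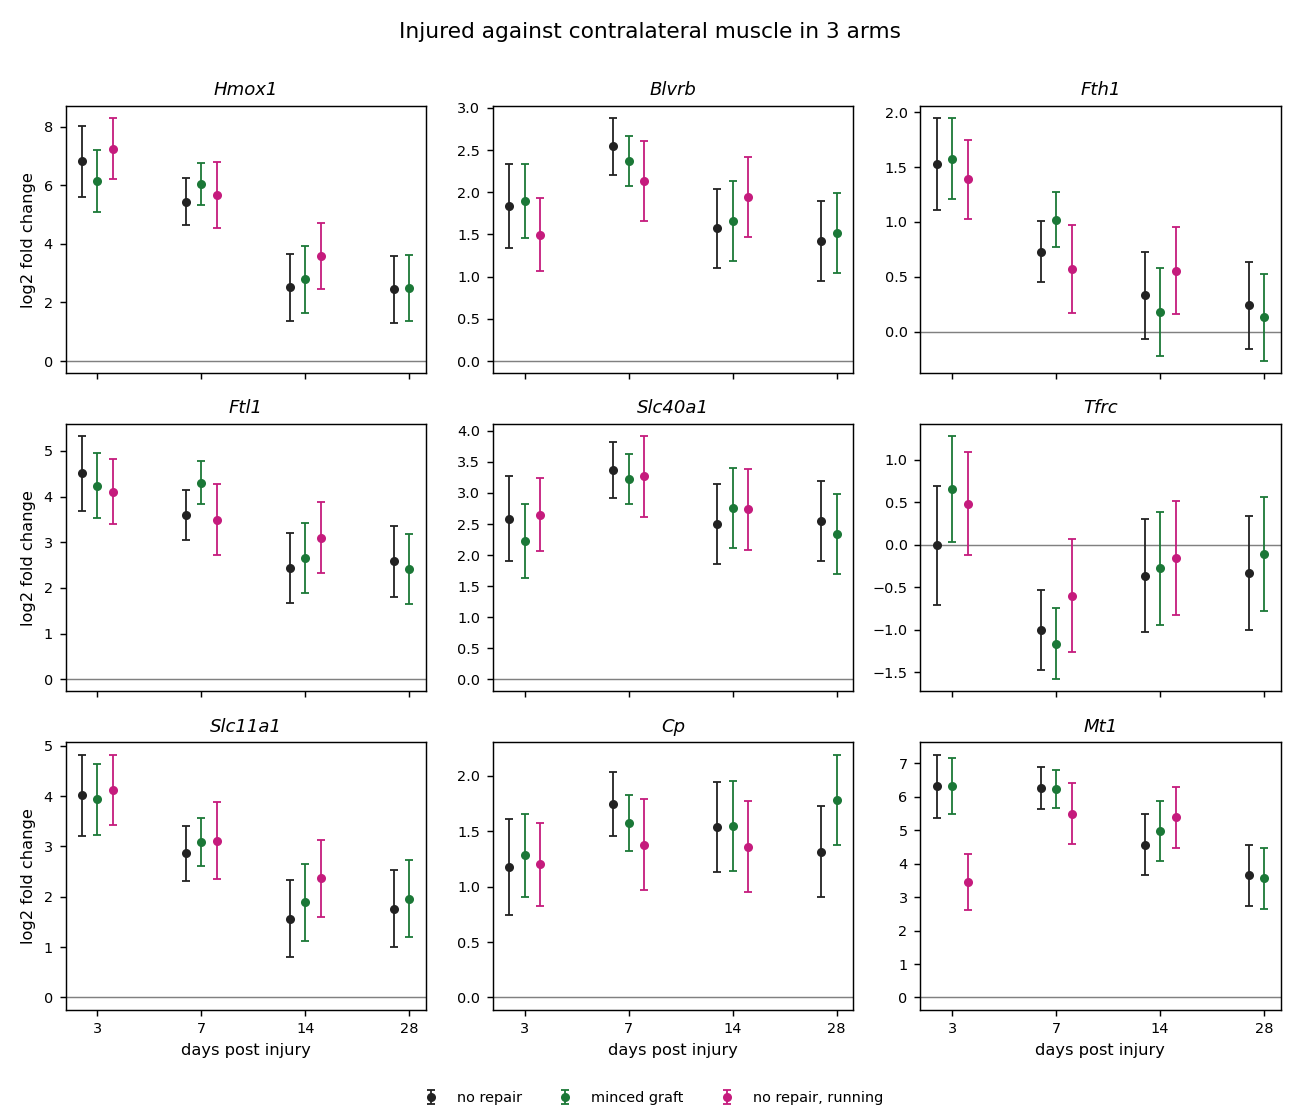
Log2 fold change of each gene in injured against contralateral muscle, by days post injury, in unrepaired, grafted and running unrepaired rats, with 95% confidence intervals as lines. In grafted rats Hmox1 went from 6.16 at 3 DPI to 2.49 at 28 DPI and Mt1 from 6.31 to 3.57, whereas Cp stayed between 1.28 and 1.78.

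The time course was tested between successive days in grafted injured muscle. From 3 to 7 DPI Hmox1 fell by 2.04 ± 0.34 on the log2 scale (adjusted p = 4.02e-07), Mt1 by 1.61 ± 0.27 (adjusted p = 5.44e-07), Slc11a1 by 1.27 ± 0.23 (adjusted p = 2.35e-06) and Ftl1 by 1.02 ± 0.23 (adjusted p = 0.000129). Over the same days Tfrc rose by 1.20 ± 0.20 (adjusted p = 4.02e-07). This made 1 gene higher and 4 lower, where 6.94% of all genes were called. Slc40a1, not among them, was called higher with size factors (1.05), a pseudocount of 0.1 TPM (1.002) and the range of rat numbers in the model (1.10). It was also called without rat TS5.021, TS5.100 or TS5.108. The Ftl1 value was -0.92 with size factors and between -0.95 and -0.99 without rat TS5.009, TS5.013, TS5.016, TS5.021, TS5.024 or TS5.108, under the fold limit. Cp did not differ between these days (0.00 ± 0.12, 95% interval -0.24 to 0.25).

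From 7 to 14 DPI Hmox1 fell by a further 2.95 ± 0.40 (adjusted p = 2.36e-09), Ftl1 by 1.46 ± 0.27 (adjusted p = 3.42e-06), Slc11a1 by 1.39 ± 0.27 (adjusted p = 8e-06) and Mt1 by 1.35 ± 0.32 (adjusted p = 0.000171, and -0.97 with size factors). These 4 genes were called lower and none higher, and 10.8% of all genes were called. From 14 to 28 DPI Mt1 alone was called, at -1.32 ± 0.37 (adjusted p = 0.0176), with 1.36% of all genes called. The Mt1 call was lost without rat TS5.075 (-1.35), TS5.083 (-0.98), TS5.139 (-1.15) or TS5.143 (-1.21). For Hmox1 the interval of the difference between 14 and 28 DPI was -1.55 to 0.31.

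Graft and no repair were compared in injured muscle of rats that did not run. The unrepaired muscles are among those on which the genes were chosen, so this is a description and no independent test of the graft. No gene of the 9 was called by limma on any of the 4 days, where 0.00883%, 0.0883%, 0.0265% and 0% of all genes were called at 3, 7, 14 and 28 DPI, and 0, 1, 0 and 0 of the 9 had an unadjusted p under 0.05. The Hmox1 medians at 7 DPI were 219 TPM with graft and 99.4 TPM without, and the ranges of 138.7 to 400.3 and 45.7 to 833 TPM overlapped. That difference, 0.77 ± 0.33 on the log2 scale, was not called and had a 95% interval of 0.11 to 1.43. Without rat TS5.020, whose 833 TPM was the highest unrepaired value, it was 1.15 and called. For Mt1 the intervals of graft against no repair were -0.61 to 0.83 at 3 DPI, -0.63 to 0.42 at 7 DPI, -0.44 to 1.04 at 14 DPI and -0.86 to 0.62 at 28 DPI. The injury effect itself, injured minus contralateral, did not differ between grafted and unrepaired rats by a called amount for any of the 9 genes, with 0%, 0%, 0% and 0% of all genes called on the 4 days and none of the 9 at an unadjusted p under 0.05.

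Running and non-running unrepaired injured muscle were compared likewise as a description, since the non-running muscles entered the choice. Limma called none of the 9 genes. Of all genes, 0.0441%, 0%, 0.0177% and 0.0177% were called at 3, 7, 14 and 28 DPI. Of the 9 genes, 1, 1, 2 and 2 had an unadjusted p under 0.05. Mt1 at 28 DPI was 24.1 and 26.4 TPM in the 2 running muscles and 64.9 to 85.2 TPM in the 4 others, without overlap. The difference was -1.44 ± 0.46 and not called, and it was called when only the compared groups entered the model. Blvrb at 28 DPI held 35.9 and 41.5 TPM in running muscle, below the 55.1 to 77.99 TPM of the others, at -0.66 ± 0.24, not called. The share of all genes without overlap between these groups was not computed.

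The injury effect on Mt1 at 3 DPI was smaller in running than in other unrepaired rats, by -2.85 ± 0.64 on the log2 scale (95% interval -4.12 to -1.59), given as a description since the other unrepaired rats entered the choice. It was the 1 gene of the 9 called there, where 0.0971% of all genes were called. Contralateral muscle of running unrepaired rats held 94.7 and 174 TPM of Mt1, apart from the 11.9 to 30.0 TPM of the other 3 arms, while injured Mt1 ran from 776 to 2217 TPM in the 8 running unrepaired muscles and from 852 to 1383 TPM in the 3 unrepaired muscles without running. Mt2A showed the same order, with 184 and 206 TPM against 23.9 to 57.3 TPM. Summed neutrophil markers were 119.9 and 170.0 TPM in those running contralateral muscles and 9.06 to 119.9 TPM in the other arms, and summed macrophage markers 313 and 464 TPM against 156 to 413 TPM. Summed fiber markers did not overlap, at 200365 and 211328 TPM against 229851 to 263821 TPM. The part of these in the result was not tested. Each contralateral group here had 2 muscles, and the Mt1 call was lost without rat TS5.001 (-2.49), TS5.010 (-2.93) or TS5.017 (-2.89), with all libraries kept, and with only the compared groups in the model. At 7 DPI (0.00883% of all genes) and 14 DPI (0%) no gene of the 9 was called, and none had an unadjusted p under 0.05.

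Contralateral muscle was compared with control to see whether the uninjured leg of an operated rat differed. The muscles are among those on which the genes were chosen, so this is a description. Over the mean of the 4 days in unrepaired rats, 1 gene of the 9 was called, Mt1, with 1.24% of all genes called. Its log2 fold change was 1.21 ± 0.32, and it was 0.89 without the control muscle of fewest symbols and 1.00 without rat TS4.038, both under a call. The call was also lost when the 2 muscles of each control rat were averaged (1.11), with all libraries kept (0.999), and with only the compared groups in the model. The 4 days were then fitted apart, a step added after the values had been seen. At 3 DPI Mt1 was 2.24 ± 0.46, Ftl1 1.06 ± 0.39 and Tfrc -1.54 ± 0.34, all called, with 6.43% of all genes called. Most marker sums did not overlap control. Macrophage markers were at 156 and 413 TPM in the contralateral pair and 37.95 to 73.9 TPM in control, and neutrophil markers at 9.06 and 112.02 against 2.06 to 6.59. Fibroblast markers were at 694 and 1620 against 92.3 to 273, and fiber markers at 229851 and 263821 against 285764 to 344630. Endothelial markers (158 and 171 against 62.5 to 144.38) and lymphocyte markers (9.6 and 17.9 against 2.78 to 4.95) were apart as well. Erythroid markers overlapped, at 1268 and 9665 against 1968 to 5442. Their part in the Mt1, Ftl1 and Tfrc values was not tested. At 7, 14 and 28 DPI limma called 0 of the 9 genes, with 0.803%, 0.715% and 0.185% of all genes called and 2, 0 and 0 of the 9 at an unadjusted p under 0.05. Without control rat TS4.037 Tfrc was called at 7 DPI, at 1.08. Mt1 was 0.90, 0.84 and 0.86 on these days, and at 7 DPI 1.07 and called with size factors. Its later contralateral values over all arms, 2.29 to 12.2 TPM, lay below most of those at 3 DPI and overlapped control.

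Tfrc in contralateral muscle at 3 DPI held 16.6 to 37.7 TPM over the 8 muscles of all arms, against 80.1 to 221 TPM in the 14 muscles at 7 DPI, 69.8 to 124 TPM in 8 at 14 DPI and 50.1 to 88.9 TPM in 4 at 28 DPI. No muscle at 3 DPI reached the lowest of any later day, and the share of all genes that separate in this way was not computed. Relative to control the Tfrc difference at 3 DPI was -1.90 without the control muscle of fewest symbols, -2.02 without rat TS4.038 and -1.06 without rat TS4.037, all called, and without rat TS5.010 it was -1.06 and not called. The Ftl1 difference was not called with size factors (0.49), without rat TS5.010 (0.46) or TS4.038 (1.04), without the control muscle of fewest symbols (1.03), or with control rats averaged (1.06). Mt1 at 3 DPI was called in all of these and was 1.92 without the control muscle of fewest symbols. With all libraries kept only Mt1 was called, and with only the compared groups in the model none of the 3 was. Each contralateral group of unrepaired rats at 3 DPI had 2 muscles.

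**Figure D4:**
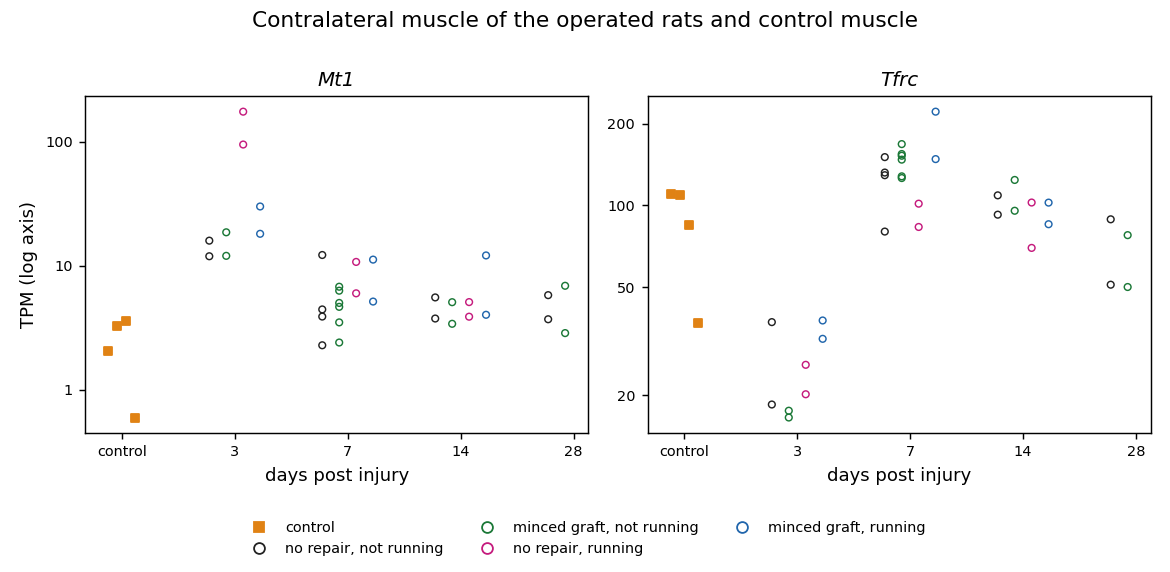
TPM (log axis) of Mt1 and Tfrc in contralateral muscle of each arm (open circles) and in control muscle (squares), by days post injury. At 3 DPI Mt1 lay between 11.9 and 174 TPM, above the 0.60 to 3.56 TPM of control, and Tfrc between 16.6 and 37.7 TPM.

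Sums over markers of cell types were set beside the 9 genes. Summed over 18 macrophage markers, control muscle held 37.95 to 73.9 TPM, and injured muscle of all arms 6095 to 11294 TPM at 3 DPI, 1282 to 7059 at 7 DPI, 818 to 2113 at 14 DPI and 463 to 1944 at 28 DPI. The macrophage gene Marco was at 0 in every control muscle. It was also at 0 in every injured muscle of all arms at 14 and 28 DPI, and in unrepaired non-running injured muscle at 3 DPI. Summed over 17 muscle fiber markers, control held 285764 to 344630 TPM and injured muscle 28682 to 109599 TPM at 3 DPI. The 11 neutrophil markers went from 2.06 to 6.59 TPM in control to 82.8 to 498 TPM in injured muscle at 3 DPI, and the 11 fibroblast markers from 92.3 to 273 TPM to 5414 to 18141 TPM. The 10 T and B lymphocyte markers went from 2.78 to 4.95 TPM in control to 206 to 365 TPM at 3 DPI, and the 10 endothelial markers from 62.5 to 144.38 TPM to 246 to 494 TPM. In injured muscle of all arms the fibroblast median was higher at 7 DPI (16214.5 TPM) than at 3 DPI (9568). The endothelial median was 380 TPM at 3 DPI and 379 at 7 DPI. Summed over 14 erythroid markers, control held 1968 to 5442 TPM and injured muscle 1772 to 93692 TPM at 3 DPI, a range that took in that of control. Hbe1 and Hbe2 were at 0 in control, and Hbe2 was also at 0 in all injured muscle at 7, 14 and 28 DPI. The part of these cells in the levels of Hmox1, Ftl1, Slc11a1 and the others was not tested. In whole muscle, more cells of a type and more RNA per cell cannot be told apart.

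**Figure D5:**
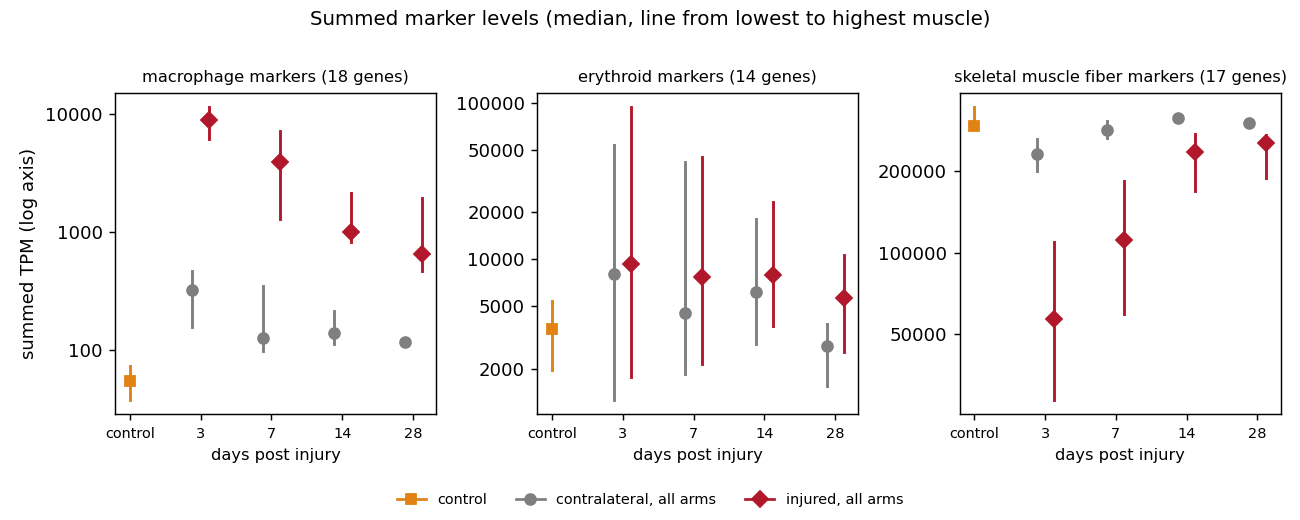
Summed TPM (log axis) of macrophage, erythroid and skeletal muscle fiber markers in control, contralateral and injured muscle of all arms, by days post injury, as the median with a line from the lowest to the highest muscle. In injured muscle the macrophage median was 8878 TPM at 3 DPI and 648 at 28 DPI, and the erythroid range reached 93692 TPM at 3 DPI.

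In 3 groups, picked out after the values had been seen, a single injured muscle led the same 6 genes, Hmox1, Fth1, Ftl1, Slc40a1, Slc11a1 and Cp, and not Mt1, Tfrc or Blvrb. Among the 8 unrepaired muscles at 7 DPI it was that of rat TS5.020, with 833 TPM of Hmox1 and 4063 TPM of Ftl1, a macrophage sum of 5006 TPM against 1282 to 4170 in the others, and a fiber sum of 85885 TPM against 92027 to 183470. Among the 4 unrepaired muscles at 28 DPI it was that of rat TS5.082, with 44.8 TPM of Hmox1, a macrophage sum of 1516 TPM against 463 to 618, and a fiber sum of 260286 TPM that was above the 236929 to 249394 of the others. Among the 4 running unrepaired muscles at 7 DPI it was that of rat TS5.031, with 683 TPM of Hmox1 and a macrophage sum of 6138 TPM against 2728 to 4175, and a fiber sum of 59478 TPM against 122647 to 134325. In all 3 groups the Mt1 level of that muscle lay inside the range of the others or, in rat TS5.082, at its lower end with 64.9 TPM. Each of these muscles also had the lowest Tfrc of its group, at 42.1, 28.5 and 38.8 TPM. Each was picked as the highest of its group for Hmox1 or, for rat TS5.082, for Ftl1, so that lead was fixed by the choice. The other injured groups, and the share of all genes led by such a muscle, were not counted. The part of the marker sums in these levels was not tested.

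The 9 genes were set beside lists of other genes of the same pathways, which hold none of the 9. In grafted injured against contralateral muscle at 3 DPI, 14 of 25 tested genes of iron uptake, storage, export and regulation were called higher and 1 lower, 8 of 12 genes of heme and hemoglobin uptake, transport and breakdown higher, and 14 of 16 metallothionein and zinc genes higher. Heme synthesis had 1 of 10 genes higher and 1 lower and a median log2 fold change of -0.13, beside 0.66 over all genes. Antioxidant genes of the NRF2 pathway had 11 of 25 higher and 2 lower, and copper handling 5 of 12 higher. At 7 DPI the counts were 14 higher and 1 lower for iron, 1 higher for heme synthesis, 8 for heme uptake, 13 for metallothioneins and zinc, 14 higher and 1 lower for NRF2, and 4 for copper. At 28 DPI 6, 1, 4, 6, 2 and 2 genes were called higher and none lower. Of all genes, 44%, 46.2% and 19.1% were called on these days, and shares such as 5 of 12 for copper and 13 of 25 for NRF2 at 3 DPI lay near that background. With size factors, under which 37.5%, 34.9% and 13% of all genes were called at 3, 7 and 28 DPI, the split at 3 DPI was 10 higher and 3 lower for iron, 1 higher and 5 lower for heme synthesis and 6 higher and 4 lower for NRF2, and 5, 8 and 4 were higher and none lower for heme uptake, metallothioneins and zinc, and copper. At 7 DPI it was 7 higher and 1 lower for iron, 1 and 3 for heme synthesis, 4 and 0 for heme uptake, 6 and 0 for metallothioneins and zinc, 5 and 3 for NRF2 and 2 and 1 for copper. At 28 DPI it was 2 higher and 1 lower for iron, and 1, 3, 2, 1 and 1 higher for the other 5 lists. The heme uptake list holds Cd163, Marco and Msr1, which are also macrophage markers, and Alas2 of heme synthesis is also an erythroid marker.

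From each list the called genes with the largest and smallest fold at 3 DPI in unrepaired rats are named, with values from grafted rats. Among iron genes Steap1, of a family of metalloreductases, was 4.41 ± 0.37 at 3 DPI (adjusted p = 8.15e-19), and Hfe2, which encodes hemojuvelin, was -2.68 ± 0.29 (adjusted p = 3.29e-14). Among heme synthesis genes Tspo, a mitochondrial outer membrane protein, was 3.72 ± 0.23 (adjusted p = 7.08e-26), and Alas2, the erythroid first enzyme of the pathway, was 0.17 ± 0.95 and not called. Msr1, a scavenger receptor of macrophages, was 5.21 ± 0.32 (adjusted p = 4.27e-26) and the heme transporter Flvcr2 1.49 ± 0.18. Mt2A was 5.44 ± 0.42 (adjusted p = 1.03e-20) and the zinc transporter Slc39a13 1.02 ± 0.14. Tkt, an enzyme of the pentose phosphate pathway, was 3.71 ± 0.26 (adjusted p = 2.42e-23), and Osgin1 was -1.42 ± 0.19 (adjusted p = 3.52e-10). Of the copper genes, Loxl2, a copper-dependent oxidase of matrix, was 3.29 ± 0.31 and Commd1 1.13 ± 0.11. Mt2A followed Mt1 over time, with 821 to 2765 TPM in injured muscle of all arms at 3 DPI and 27.9 to 100.9 TPM at 28 DPI, against 2.82 to 11.9 TPM in control.

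Genes most like each of the 9 over the 31 group means of log2(TPM + 1) were sought among 11319 others, as a description. Hmox1 was most like Ctsa, Myd88 and Lyn (r = 0.996, 0.996 and 0.995), Ftl1 like Emp3, Ifitm1 and Pf4 (0.996, 0.995 and 0.995), Slc11a1 like Hpse, Akr1b8 and Ifi30 (0.995, 0.995 and 0.994) and Slc40a1 like Cthrc1, Loxl1 and Thbs3 (each 0.991). Cp was most like Arhgef3, Tll1 and Pdgfrl (0.986, 0.985 and 0.985) and Mt1 like Ninj1, Tgif1 and Cdkn2d (0.988, 0.988 and 0.987). Tfrc had no gene above an r of 0.9, with Ndufaf5 nearest (0.8998), where the other 8 had 1888 to 5010 such genes. A high r was thus common among all genes. The correlation of Tfrc with the other 8 genes ran from -0.518 (Blvrb) to -0.204 (Slc40a1). Fth1 was most like RGD1565355, LOC689757 and LOC681325 (0.976, 0.97515 and 0.974).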

How the data were processed

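The authors pseudo-aligned 76-base paired reads to the rat genome (Genbank build 6.0) with kallisto at default parameters and deposited a table of TPM for each gene symbol, used here as deposited. No counts were used, so single-library depths are unknown, and the paper's count test with DESeq2 could not be run on TPM. Libraries were matched to labels by name. Of 138 libraries, 9 had conflicting labels and no group, and 13 with fewer than 7000 symbols above 1 TPM were left out, which lost 2 muscles. Libraries of 1 muscle were averaged, giving 114 muscles of 78 rats in 31 groups.

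Genes with a mean above 1 TPM in at least 1 group were log2-transformed after adding 1 TPM and fitted with limma 3.58.1 under R 4.3.3, its variance prior allowed to follow the mean level, in 1 model with 83 residual degrees of freedom and no block. Contralateral and injured muscles of 1 rat pair by animal: their deviations from group means correlated at 0.0722 on average over 36 pairs, against -0.00871 between rats, and a block by rat (statmod 1.5.0, correlation 0.0260) is an alternative. The genes named are the 9 genes, the called gene of largest and smallest fold of each list in unrepaired muscle at 3 DPI, and the 3 most correlated genes of each of the 9, except that those of Blvrb are not reported here. For Tfrc only the nearest is named. Genes and lists were chosen with earlier results of these data known. Other alternatives were a pseudocount of 0.1 TPM, no filter, size factors, all libraries, each library alone, only the compared groups, no running rats, averaged control rats, the range of rat numbers, no fold limit, and each rat left out. Size factors with the block, single days and leaving out 1 control muscle were added after the data were seen. Promoters are from RefSeq. Tables used Python 3.11.15, numpy 2.4.6, pandas 2.3.3 and matplotlib 3.10.9.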

Additional observations from a re-analysis of the deposited data

Results flagged for a closer look

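In sets of 4 to 10 muscles of 1 group and gene, 10 (6.94% of those tested) had a muscle whose distance from its nearest neighbor took up most of the range (Dixon's 95% limit), where chance gives about 1 in 20. Mt1 was low in 1 unrepaired muscle (183 TPM) and 1 running unrepaired muscle (287 TPM) at 7 DPI, and high in 1 unrepaired muscle at 28 DPI (85.2 TPM). Blvrb was low in 1 unrepaired muscle at 7 DPI (56.4 TPM), and Fth1 was high in that of rat TS5.082 at 28 DPI (3060 TPM). Ftl1 was low in 1 unrepaired muscle (608 TPM) and high in 1 grafted muscle (1108 TPM) at 14 DPI. Hmox1 was high in 1 grafted muscle at 28 DPI (25.8 TPM), and Tfrc was low in 1 grafted muscle at 14 DPI (71.4 TPM). Cp was low in the control muscle with the fewest symbols (3.99 TPM).

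The injury effect on Mt1 at 3 DPI was smaller in running than in other unrepaired rats and called by limma, with a log2 difference of -2.85 ± 0.64 and 2 contralateral muscles in each arm. The other unrepaired rats are among the samples on which the genes were chosen, so this is no independent test. The call was lost without rat TS5.001 (-2.49), TS5.010 (-2.93) or TS5.017 (-2.89).

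In the 9 libraries without a group, some lay above the highest control muscle for each gene: 9 for Mt1, Ftl1 and Slc40a1, 7 for Slc11a1 and Cp, 6 for Blvrb, 4 for Hmox1, and 1 for Fth1 and Tfrc.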

How the results depend on the processing

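Of 697 counts of the 9 genes called, under the alternatives together, 662 stayed within 1.5 times the reported count. Of 2152 fold changes of called genes 2045 kept direction and call, 1 turned and the others lost the call. The one that turned was Tfrc at 7 DPI, injured against contralateral, which was 0.46 with all libraries kept. With the rat as a replicate block the only call lost was that same one, at -0.997. Size factors, with or without the block, gave 5 genes in running injured muscle at 3 DPI and 1 in contralateral muscle at 7 DPI. A pseudocount of 0.1 TPM gave 6 genes in contralateral muscle at 3 DPI and 1 at 7 DPI, and no fold limit gave 6 at 3 DPI. All libraries kept gave 0 genes for contralateral against control, 1 for graft at 7 DPI, 0 from 14 to 28 DPI in grafted muscle, 0 for the running difference at 3 DPI, and 1 and 2 in contralateral muscle at 3 and 7 DPI. Only the compared groups gave 0, 0, 0, and 0 for the overall contralateral, grafted 28 against 14 DPI, running difference and contralateral 3 DPI counts, and 1 for running at 28 DPI. Control rats averaged, or 1 control muscle left out, gave 0 calls for contralateral muscle over the 4 days, and days fitted alone gave 3, 0, 0 and 0. Leaving out each rat gave 0 to 1 for contralateral against control, graft at 7 DPI, grafted 28 against 14 DPI, the running difference at 3 DPI and contralateral muscle at 7 DPI, and 1 to 4 for contralateral muscle at 3 DPI. Of 2346 counts of list genes 320 moved by more than 1.5 times. The causes were not tested. Since TPM carries no depth, low values such as Slc11a1 in control have no counting error here.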

Other observations

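No group could be given to 9 libraries: 8 come from running rats at 28 DPI and carry a title that contradicts the injury label, and 1 has a day that differs from that of the other libraries of its rat. Over these libraries Mt1 ranged from 4.54 to 67.4 TPM with a median of 9.27, Hmox1 from 1.76 to 22 (median 3.49), Ftl1 from 105.4 to 726 (median 143.15), Slc40a1 from 1.84 to 17.3 (median 4.18) and Tfrc from 51.6 to 197 (median 70.2).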
